A study of Homo sapiens with 6 samples.

Results

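The proteasome genes of C4-2 cells were examined before and after induction of an active form of YAP1. C4-2 descends from the LNCaP prostate cancer line and grows without androgen supply. The members are the rows of the deposited table whose symbol is PSM, a family letter from A to G and a number, 48 rows of 26819. They hold 46 genes, because PSMA1 and PSMA2 each stand on a pair of rows. All 46 passed the filter on low values, which asked for at least 1 TPM in at least 3 libraries. TPM counts a gene's reads per length of the gene, with an equal sum for each library. All libraries came from cells carrying Tet-O-YAP5SA, in which doxycycline switches on a YAP1 whose LATS-phosphorylated serines are replaced by alanine. The Ctrl group (n = 3) had no doxycycline. The Dox group (n = 3) was given doxycycline for 24 hours at a labelled dose of 0.2 mg/ml, whose unit is in doubt for an inducible line. No cells without the transgene received the drug, so an effect of doxycycline itself is part of every difference. The labels do not say whether the replicates were separate cultures, or whether the line is a clone, so the p-values reflect only how far these libraries scatter, which may be technical. In bulk RNA, fewer cells with a transcript and less of it per cell cannot be told apart.

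The proteasome degrades proteins that carry chains of ubiquitin. Its 20S core is a barrel with outer rings of alpha subunits and inner rings of beta subunits, and the subunits encoded by PSMB5, PSMB6 and PSMB7 hold the catalytic sites. The 19S cap sits on the ends of the barrel: a base with an ATPase ring unfolds the substrate, and a lid removes the ubiquitin. In immune cells and after interferon-gamma, the catalytic subunits can be replaced by those of the immunoproteasome, encoded by PSMB8, PSMB9 and PSMB10. The transcription factor NRF1 (NFE2L1) raises proteasome genes together, through antioxidant response elements, when proteasome activity is short.

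The label was checked on the transgene and on cell markers. YAP1 was at 52.7, 57.9 and 59.9 TPM in the Ctrl libraries and at 263, 277 and 268 TPM in the Dox libraries, and the YAP targets CTGF and CYR61 rose to means of 398 and 2650 TPM. All 8 markers of luminal prostate epithelium passed the filter; 5 of them fell, KLK3 from a mean of 3300 to 1790 TPM, and 2 rose. Among 6 markers of other cells, VWF (1.25 and 3.74 TPM) and COL1A1 (6.58 and 8.04 TPM) passed the filter and rose, CD3E was at 0 TPM in every Ctrl library, and the 6 summed to 8 to 9 TPM in Ctrl and 12 to 13 TPM in Dox. The part of these markers in the results below was not tested. Each library held between 24941836 and 29239717 recovered reads.

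Promoter sequences are shown for 5 members that changed most or that frame a contrast. PSMB10 and PSMG4 had the largest falls by fold, PSMD5 and PSMD12 the largest rises of the assembly and lid genes, and PSMB9 is the immunoproteasome gene read beside PSMB10. Each is the stretch of 200 bases before the RefSeq start (GRCh38.p14), on the strand of the gene. Capitals mark the interferon-stimulated element, which is GAAA, any 2 bases and GAAA, in the PSMB10 and PSMG4 promoters. In the other promoters they mark the core of the antioxidant response element, TGACNNNGC, on either strand.
PSMB10: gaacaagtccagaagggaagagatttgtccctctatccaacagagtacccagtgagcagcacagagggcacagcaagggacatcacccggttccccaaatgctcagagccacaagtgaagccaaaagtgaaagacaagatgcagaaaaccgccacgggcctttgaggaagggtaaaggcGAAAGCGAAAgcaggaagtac
PSMG4: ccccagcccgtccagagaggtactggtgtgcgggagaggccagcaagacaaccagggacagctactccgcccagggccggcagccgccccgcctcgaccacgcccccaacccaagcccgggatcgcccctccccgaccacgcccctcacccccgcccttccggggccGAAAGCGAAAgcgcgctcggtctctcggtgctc
PSMB9: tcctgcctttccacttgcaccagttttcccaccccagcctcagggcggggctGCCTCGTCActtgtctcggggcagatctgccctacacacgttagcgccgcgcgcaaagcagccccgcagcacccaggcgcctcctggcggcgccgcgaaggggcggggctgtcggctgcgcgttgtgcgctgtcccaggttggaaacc
PSMD5: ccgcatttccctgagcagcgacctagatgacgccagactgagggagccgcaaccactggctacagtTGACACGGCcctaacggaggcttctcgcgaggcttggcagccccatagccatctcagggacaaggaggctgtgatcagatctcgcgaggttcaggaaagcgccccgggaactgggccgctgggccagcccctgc
PSMD12: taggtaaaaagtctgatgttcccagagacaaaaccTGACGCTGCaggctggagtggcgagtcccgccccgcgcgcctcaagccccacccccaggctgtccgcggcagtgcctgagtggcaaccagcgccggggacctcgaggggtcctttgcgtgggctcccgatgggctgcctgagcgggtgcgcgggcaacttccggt
The PSMB10 stretch lies at chr16:67936851-67937050 on the minus strand, that of PSMG4 at chr6:3258747-3258946 on the plus strand and that of PSMB9 at chr6:32853992-32854191 on the plus strand. Those of PSMD5 (chr9:120842923-120843122) and PSMD12 (chr17:67366578-67366777) are on the minus strand.

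Sequences of 300 bases (250 before the start and 50 after it) were at hand for 40 of the 46 genes, and were searched on both strands. The antioxidant response core was found in 15 of the 40 genes (37.5%), against 16.1% of 27305 RefSeq symbols with a promoter, coding and non-coding. Among its holders were PSMD5, PSMD12, PSMD1 and PSMG1, which rose or fell with doxycycline, and PSMA4, PSMC4 and PSMG2, which did not pass the test. The interferon-stimulated element was found in 7 genes (17.5%, against 4.38%): PSMB8, PSMB10, PSME1, PSME2, PSMG4, PSMA4 and PSMB4. PSMB10, PSME2 and PSMG4 had the same decamer, GAAAGCGAAA, beginning 21, 28 and 33 bases before the start. PSMB8 and PSME1 had it on the other strand, as TTTCGCTTTC, beginning 4 bases before the start and 5 bases after it. The PSMB9 window held no match to that element. The TEAD motif GGAATG stood in 7 genes (17.5%, against 16.7%), of which PSME3 and PSMC5 rose and PSME2 fell, and the NF-Y motif CCAAT in 19 (47.5%, against 39.7%). A match describes the letters of the window and not a bound site.

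With doxycycline, proteasome genes moved little and in both directions. At a limma adjusted p under 0.05, 10 of the 46 rose and 12 fell, 21.7% and 26.1%, against 35.9% and 17.8% of all 14833 tested genes. In either direction it was 47.8%, against 53.7%. Their median log2 fold change was 0.01 and that of all tested genes 0.10, on log2(TPM + 1), the scale of the log2 fold changes given here except those from voom, which are on log2 of reads scaled by library size. In size, the median change was 0.10 for the members and 0.23 for all genes. Changes larger than 1.2-fold were found in 7 members, while 45.1% of all tested genes passed that size. The groups did not overlap for 29 members, against 61.9% of all tested genes: all Dox libraries lay above in 15 members (40.8% of all genes) and below in 14 (21.1%). Summed over the 46 genes, the level was 8225, 8044 and 8071 TPM in the Ctrl libraries and 8089, 7860 and 7856 TPM in the Dox libraries. The ranges of these sums overlapped.

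**Figure D1:**
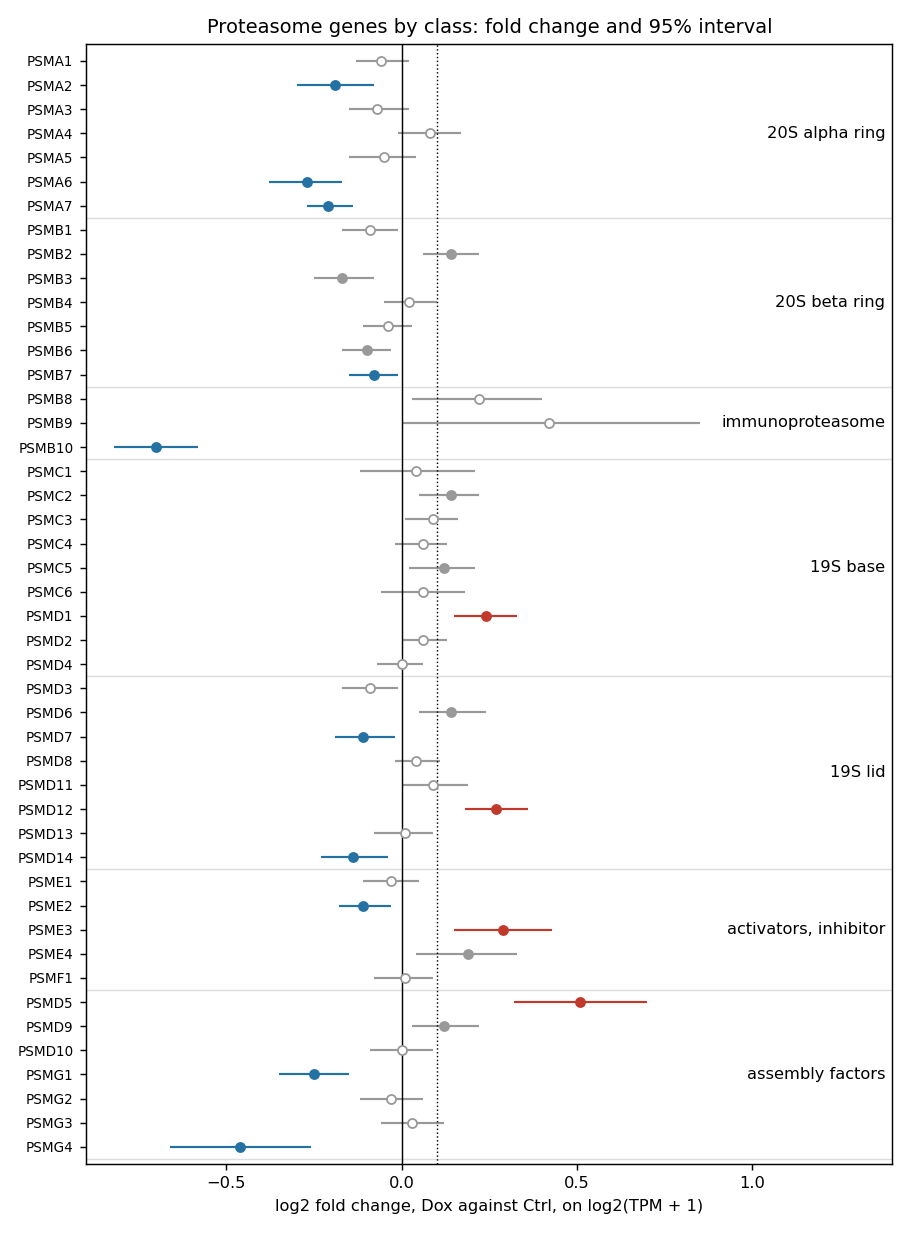
Log2 fold change (Dox against Ctrl, x axis) of the 46 proteasome genes by class, with 95% intervals from limma (n = 3 a group). Filled points passed the test; red (4 genes) and blue (10 genes) points also passed in the same direction under 3 other scalings; the dotted line is the median of all tested genes, 0.10. Most genes lie close to 0, and PSMB10, PSMG4 and PSMD5 lie farthest out among those that passed.

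Because the changes were small, the balance of rises and falls depended on how the libraries were scaled to each other. As deposited, 10 members were higher and 12 lower. After median-ratio rescaling, which moves the median of all genes from 0.10 to 0, there were 4 higher and 23 lower. Quantile normalization gave 7 and 15, and removing each library's trend with gene length gave 4 and 24. In that order of scales, the median log2 fold change of the members was -0.10, -0.06 and -0.11. That of all tested genes was 0, -0.03 and -0.05. For single scales, the shares of all tested genes called higher and lower are given only as deposited. Counts under the other scales, here and below, therefore do not show whether members fell more often than other genes. The genes that passed in the same direction under these 4 scales were PSMD1, PSMD12, PSMD5 and PSME3, which were higher, and PSMA2, PSMA6, PSMA7, PSMB7, PSMB10, PSMD7, PSMD14, PSME2, PSMG1 and PSMG4, which were lower. They make up 4 and 10 of 46 members, and 20.8% and 17.2% of all tested genes did the same upwards and downwards.

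**Figure D2:**
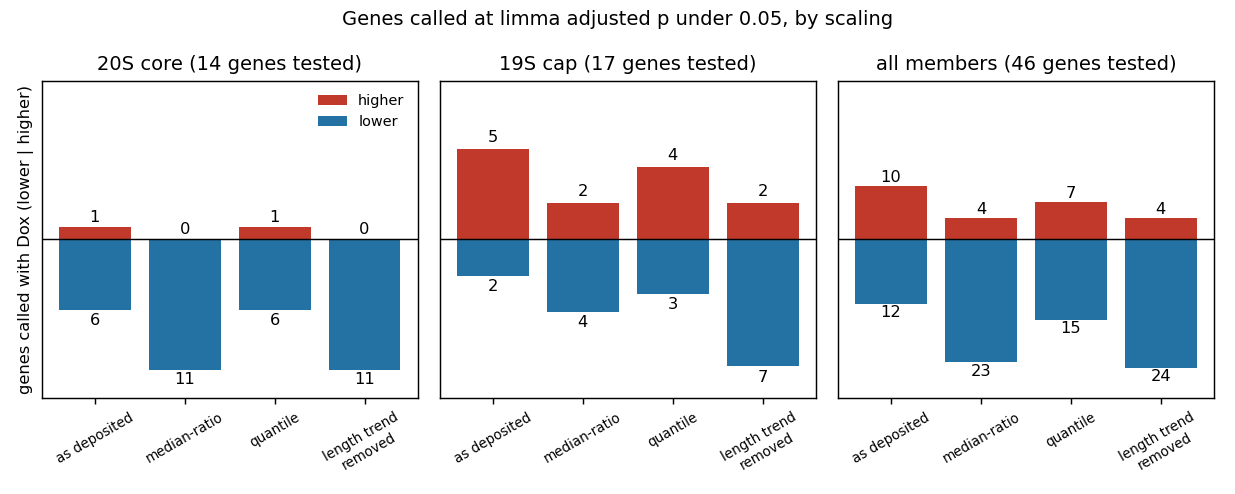
Number of genes called higher (red, upwards) and lower (blue, downwards) at limma adjusted p under 0.05 under 4 scalings, for the 14 genes of the core, the 17 of the cap and all 46 members; each panel has its own y scale. Under these scalings 6, 11, 6 and 11 core genes were called lower and 1, 0, 1 and 0 higher, while the split of the cap changed from 5 higher and 2 lower to 2 higher and 7 lower.

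The 14 constitutive core genes included 6 that fell and 1 that rose, 42.9% and 7.14%, against 17.8% and 35.9% of all tested genes, with a median log2 fold change of -0.07 (0.10 for all genes). In the alpha ring, PSMA2, PSMA6 and PSMA7 fell and none of the 7 genes rose. PSMA6 encodes one of the alpha subunits, and was at 177, 167 and 174 TPM in the Ctrl libraries and at 151, 137 and 139 TPM in the Dox libraries. All 3 Dox libraries lay below all Ctrl libraries. It was 1.21-fold lower, a log2 difference of -0.27 ± 0.04 (SE; limma adjusted p = 0.0015). PSMA7, the most abundant alpha gene when the second row of PSMA1 (777 TPM in Ctrl) is set aside, was at 606, 578 and 601 TPM and at 512, 519 and 514 TPM, with closely spaced Dox libraries and no overlap (log2 fold change -0.21 ± 0.03, limma adjusted p = 0.00058). PSMA2 was at 263, 237 and 247 TPM in Ctrl and at 227, 214 and 213 TPM in Dox, again apart (-0.19 ± 0.05, limma adjusted p = 0.0096). Its second row, an overlapping locus on the same strand in GENCODE 29, fell by a like amount (log2 fold change -0.18), and the second row of PSMA1 had -0.06, as did the first. Reads shared by such overlapping loci cannot be assigned with certainty, which also holds for PSMA6, where the overlapping locus AL121594.1 was at 348 TPM in Ctrl and 324 TPM in Dox.

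The other alpha genes did not pass the test as deposited. PSMA1, PSMA3 and PSMA5 were called lower after median-ratio rescaling (-0.17, -0.18 and -0.16) and with the length trend removed (-0.18, -0.17 and -0.23), and PSMA3 (-0.12) and PSMA5 (-0.14) also with quantile normalization. PSMA5, the least abundant, was at 114, 113 and 107 TPM in Ctrl and at 111, 103 and 107 TPM in Dox, with overlapping groups. PSMA4 stood apart from its ring: its Dox libraries (246, 228 and 229 TPM) all lay above its Ctrl libraries (226, 220 and 218 TPM), with a log2 fold change of 0.08 ± 0.04 (limma adjusted p = 0.11) that turned to -0.03 after median-ratio rescaling. The level of PSMA6 relative to PSMA4 was 78.3%, 75.6% and 79.8% in Ctrl and 61.5%, 60% and 60.9% in Dox. A factor common to a library cancels in such a ratio, but quantile normalization and removal of the length trend do not. The pair was chosen after its values were seen. The alpha rings hold the products of both genes in equal number, but gene length in TPM is that of all annotated exons together, so levels of different genes do not give a count of subunits.

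In the beta ring PSMB3, PSMB6 and PSMB7 fell and PSMB2 rose. PSMB3, a non-catalytic subunit and the most abundant beta gene, was at 677, 644 and 664 TPM in Ctrl and at 616, 573 and 579 TPM in Dox. Its groups did not overlap (log2 fold change -0.17 ± 0.04, limma adjusted p = 0.0058). PSMB2, also without a catalytic site and the least abundant, went the other way, from 175, 188 and 179 TPM to 201, 199 and 197 TPM (0.14 ± 0.03, limma adjusted p = 0.0094). The rise of PSMB2 does not pass after median-ratio rescaling (0.03) or with the length trend removed (0.05), and the fall of PSMB3 does not pass after quantile normalization (adjusted p = 0.079).

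PSMB4 (log2 fold change 0.02) and PSMB1 (-0.09, limma adjusted p = 0.068) did not pass, and PSMB1 passes without Dox replicate 1 (adjusted p = 0.038), after median-ratio rescaling (-0.20) and with the length trend removed (-0.17). As deposited, the 3 catalytic genes moved by 0.10 or less. PSMB5, whose product has the chymotrypsin-like site and is the main target of bortezomib, was at 339, 331 and 327 TPM in Ctrl and at 327, 329 and 315 TPM in Dox, with overlapping groups (log2 fold change -0.04, 95% interval -0.11 to 0.03). It was called lower after median-ratio rescaling (-0.15, adjusted p = 0.012) and with the length trend removed (-0.12, adjusted p = 0.02), where PSMB6 was at -0.21 and -0.16 and PSMB7 at -0.19 and -0.17. PSMB6, the caspase-like subunit, was at 517, 494 and 495 TPM and at 463, 469 and 475 TPM. Its log2 fold change of -0.10 (limma adjusted p = 0.023) lost the call after quantile normalization (adjusted p = 0.055) and when replicate 1 or 3 of Ctrl or replicate 1 or 2 of Dox was left out (adjusted p from 0.0511 to 0.084). PSMB7, the trypsin-like subunit, was at 253, 257 and 265 TPM and at 244, 241 and 246 TPM, and its log2 fold change of -0.08 (limma adjusted p = 0.046) lost the call when any library was left out (adjusted p from 0.055 to 0.18).

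Of the 3 immunoproteasome genes, PSMB10 fell, and PSMB8 and PSMB9 had positive log2 fold changes that did not pass the test. PSMB10 had the largest change by fold of all proteasome genes, from 45.7, 40.5 and 42.8 TPM in Ctrl to 25.9, 25.4 and 26.9 TPM in Dox. The lowest Ctrl library was far above the highest Dox library, and the Dox libraries were close together. This was 1.65-fold lower (log2 fold change -0.70 ± 0.05, limma adjusted p = 2.8e-05), and it ranged from -0.83 to -0.70 over the scalings named above. An overlapping locus on the same strand, AC040162.1, was lower as well, at 14.0 TPM in Ctrl and 8.10 TPM in Dox.

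PSMB8 was at 7.78, 8.16 and 8.85 TPM in Ctrl and at 9.86, 10.6 and 8.90 TPM in Dox. The groups touched without overlapping, and the log2 fold change of 0.22 ± 0.08 did not pass (limma adjusted p = 0.052). PSMB8 passes without Dox replicate 3 (adjusted p = 0.027) and in a test limited to genes with a mean of at least 5 TPM (0.043). Its log2 fold change shrank to 0.14 with the length trend removed, 0.12 with median-ratio rescaling and 0.03 with quantile normalization, and was not called there (adjusted p of 0.16, 0.20 and 0.71). PSMB9 was close to the filter at 1.42, 0.811 and 1.88 TPM in Ctrl and at 1.96, 1.93 and 2.52 TPM in Dox. These values rest on 39, 21 and 49 reads in Ctrl and 45, 49 and 68 reads in Dox, so the second Ctrl library sets much of the difference. The log2 fold change was 0.42 ± 0.18 (limma adjusted p = 0.083), and 0.24 without Ctrl replicate 2. On the recovered reads limma voom gave 0.71, on its own scale, and called PSMB9 (adjusted p = 0.016), and it was also called without Ctrl replicate 3 (adjusted p = 0.031). PSMB8 and PSMB9 lie side by side in the MHC region on opposite strands and overlap each other in GENCODE 29.

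Set against the constitutive subunit that it replaces, each gene gave a ratio in which a factor common to a library cancels. Quantile normalization and removal of the length trend do not cancel in it. With quantile normalization, PSMB8 and PSMB5 had log2 fold changes of 0.03 and -0.05 (0.22 and -0.04 as deposited). PSMB9 and PSMB6 were at 0.27 and -0.06 (0.42 and -0.10), and PSMB10 and PSMB7 at -0.83 and -0.10 (-0.70 and -0.08). The ratios below are of TPM as deposited. PSMB10 came to 18.1%, 15.8% and 16.2% of PSMB7 in Ctrl and to 10.6%, 10.5% and 10.9% in Dox. PSMB8 was at 2.30%, 2.46% and 2.71% of PSMB5 in Ctrl and at 3.01%, 3.22% and 2.82% in Dox. PSMB9 was at 0.274%, 0.164% and 0.379% of PSMB6 in Ctrl and at 0.423%, 0.411% and 0.530% in Dox. None of the 3 ratios overlapped between the groups: that of PSMB10 was lower in Dox and the other 2 were higher. For single genes, the groups did not overlap for 61.9% of all tested genes. The ratios were not tested, and PSMB8 and PSMB9 did not pass as genes (limma adjusted p = 0.052 and 0.083). Summed, the 3 immunoproteasome genes were at 4.82% ± 0.210 of the 3 constitutive ones in Ctrl and at 3.66% ± 0.0309 in Dox (SD, n = 3). PSMB10 made up most of that sum.

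**Figure D3:**
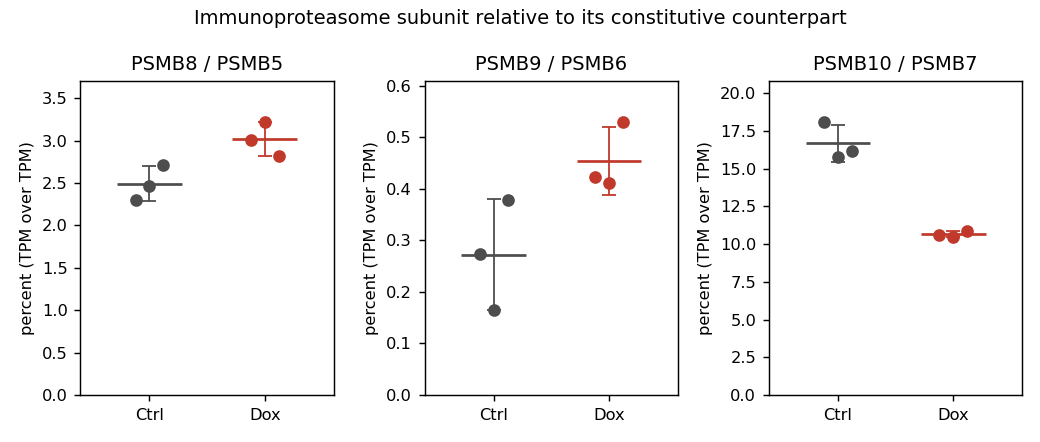
Level of each immunoproteasome gene as a percentage of its constitutive counterpart (TPM over TPM) in each library, with mean (line) and SD (bar), n = 3 a group. PSMB10 against PSMB7 dropped from a mean of 16.7% to 10.7%, while PSMB8 against PSMB5 (2.49% and 3.02%) and PSMB9 against PSMB6 (0.272% and 0.454%) were higher in Dox. The ratios were not tested, and PSMB8 and PSMB9 did not pass the test as genes.

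Genes of the interferon-gamma axis, which can induce the immunoproteasome, were read beside it. Of 8 tested genes 6 rose (75%) and none fell as deposited, against 35.9% and 17.8% of all tested genes. It was 5 and 1 after median-ratio rescaling and with quantile normalization, and 4 and 2 with the length trend removed. IRF1, the transcription factor that acts on immunoproteasome promoters, went from 5.36, 5.52 and 6.05 TPM to 13.4, 13.9 and 14.4 TPM (log2 fold change 1.17 ± 0.07, limma adjusted p = 5.2e-06), clearly apart. STAT2, which carries the interferon signal to the nucleus, was 1.67-fold higher, and its partner IRF9 went from 1.19 to 2.10 TPM. TAP1, the peptide transporter gene next to PSMB9, was at 32.3 and 32.7 TPM and did not pass (limma adjusted p = 0.76). IRF1, STAT2 and IRF9 passed under all 4 scalings, so PSMB10 fell in the same libraries in which these genes rose.

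The 17 cap genes included 5 that rose and 2 that fell, 29.4% and 11.8%, against 35.9% and 17.8% of all tested genes, with a median of 0.06 (0.10 for all genes). In the base, PSMD1, PSMC2 and PSMC5 rose and none of 9 fell. PSMD1, the large scaffold that receives ubiquitin carriers, was at 132, 143 and 133 TPM in Ctrl and at 161, 161 and 159 TPM in Dox. The Dox libraries were almost equal and all lay above Ctrl (log2 fold change 0.24 ± 0.04, limma adjusted p = 0.0013). PSMD2, the other scaffold and the most abundant base gene, was at 374, 381 and 372 TPM and at 395, 396 and 388 TPM. Its groups did not overlap, but 0.06 ± 0.03 did not pass (limma adjusted p = 0.072). The call of PSMD2 turned with the scaling: it was higher with quantile normalization (0.09, adjusted p = 0.012) and lower with the length trend removed (-0.10, adjusted p = 0.017).

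The 6 ATPase genes had small positive values, from 0.04 (PSMC1) to 0.14 (PSMC2), but PSMC1, PSMC3, PSMC4 and PSMC6 were below 0 after median-ratio rescaling. PSMC2 was at 98.1, 101 and 98.8 TPM in Ctrl and at 113, 109 and 106 TPM in Dox (0.14 ± 0.04, limma adjusted p = 0.014), and PSMC5 at 106, 110 and 101 TPM and at 119, 114 and 111 TPM (0.12 ± 0.04, limma adjusted p = 0.0496). Neither passes after median-ratio rescaling (0.03 and 0.01), after quantiles were equalised (0.04 and 0.02) or with the length trend removed (0.02 and -0.02). Leaving out Ctrl replicate 3 also ends the call of PSMC2 (adjusted p = 0.0513). That of PSMC5 ends when Ctrl replicate 1 or 3, or Dox replicate 1 or 2, is left out (adjusted p from 0.10 to 0.17). PSMC3 (0.09, limma adjusted p = 0.0546) passes without Dox replicate 3 (0.036). PSMC5 overlaps FTSJ3 on the opposite strand, which was at 20.3 TPM in Ctrl and 35.5 TPM in Dox. PSMC1, the least abundant ATPase gene, was at 20.4, 19.1 and 17.0 TPM and at 19.6, 20 and 18.6 TPM, in overlapping groups, and a pseudogene copy, PSMC1P1, was at 3.04 TPM in Ctrl, so reads of PSMC1 may be split. The ubiquitin receptor gene PSMD4 showed the least difference of the base genes as deposited, at 159 ± 3.01 and 158 ± 1.21 TPM (SD, n = 3; 95% interval of the log2 fold change -0.07 to 0.06). PSMD4 was called lower after median-ratio rescaling (-0.11, adjusted p = 0.04) and with the length trend removed (-0.10, adjusted p = 0.033).

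The lid was divided, with PSMD12 and PSMD6 rising and PSMD14 and PSMD7 falling. PSMD12, a structural subunit, was at 56.0, 59.9 and 58.4 TPM in Ctrl and at 71.9, 70.3 and 68.4 TPM in Dox, well apart (log2 fold change 0.27 ± 0.04, limma adjusted p = 0.00091). PSMD14, the metalloprotease that removes ubiquitin chains from the substrate, was at 62.1, 60.2 and 60.8 TPM and at 58.3, 53.5 and 54.7 TPM, lower in all Dox libraries (-0.14 ± 0.04, limma adjusted p = 0.029). PSMD7, which pairs with PSMD14 in the lid, was at 141, 146 and 140 TPM and at 137, 130 and 129 TPM (-0.11 ± 0.04, limma adjusted p = 0.044). PSMD12 relative to PSMD14 was 90.1%, 99.4% and 96.1% in Ctrl and 123%, 131% and 125% in Dox, a pair chosen after its values were seen. In TPM, PSMD14 was the higher in all Ctrl libraries and PSMD12 in all Dox libraries. That order rests on the lengths used, 5364 bases for PSMD12 and 7698 for PSMD14. In recovered reads PSMD14 was the higher in every library, in Dox with 3359, 3409 and 3707 against 2888, 3123 and 3226.

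PSMD6, the least abundant lid gene, was at 28.7, 29 and 28.8 TPM in Ctrl and at 33.0, 31.8 and 30.9 TPM in Dox (log2 fold change 0.14 ± 0.04, limma adjusted p = 0.022), but 0.04 after median-ratio rescaling, 0.00 after quantile normalization and -0.09 with the length trend removed. PSMD8, the most abundant, was at 413, 398 and 408 TPM and at 420, 413 and 424 TPM, with groups that met and a value (0.04) that did not pass, though it was called higher with quantile normalization (0.07, adjusted p = 0.042). PSMD3, PSMD11 and PSMD13 did not pass either, with log2 fold changes of -0.09, 0.09 and 0.01; PSMD11 passes as higher without Ctrl replicate 2 (adjusted p = 0.038). With the length trend removed all 3 were called lower (-0.24, -0.11 and -0.14), and PSMD3 was also called lower after median-ratio rescaling (-0.20) and with quantile normalization (-0.18). PSMD14 lost its call when Ctrl replicate 1 or 3, or Dox replicate 2 or 3, was dropped (adjusted p from 0.074 to 0.10), PSMD7 without any library but Dox replicate 1 (0.076 to 0.12), and PSMD6 when Ctrl replicate 1 or 3, or Dox replicate 1 or 2, was dropped (0.058 to 0.069).

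Among the alternative caps, PSME3 and PSME4 rose, PSME2 fell, and PSME1 and the inhibitor PSMF1 did not pass. PSME3, which encodes the nuclear activator PA28-gamma, was at 98.2, 114 and 99.6 TPM in Ctrl and at 130, 126 and 126 TPM in Dox. All Dox libraries lay above Ctrl, although Ctrl replicate 2 was closer to them (log2 fold change 0.29 ± 0.06, limma adjusted p = 0.0042). PSME4, which encodes the nuclear activator PA200, was at 29.3, 34.1 and 30.1 TPM and at 35.9, 36.6 and 34.1 TPM, in groups that met at 34.1 TPM. Its rise of 0.19 ± 0.06 (limma adjusted p = 0.039) was lost after median-ratio rescaling (0.08), after quantile normalization (0.04) and with the length trend removed (-0.06). It was also lost when Ctrl replicate 1 or 3, or Dox replicate 1 or 2, was dropped (adjusted p from 0.092 to 0.12).

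PSME1 and PSME2 encode the interferon-inducible activator that partners the immunoproteasome. PSME1, the most abundant gene of this class, was at 287, 267 and 278 TPM in Ctrl and at 276, 270 and 271 TPM in Dox, with overlapping groups (log2 fold change -0.03, 95% interval -0.11 to 0.05), and it was called lower after median-ratio rescaling (-0.14, adjusted p = 0.048). PSME2 was at 75.9, 75.0 and 77.5 TPM and at 70.3, 69.8 and 72.0 TPM, lower in every Dox library (-0.11 ± 0.03, limma adjusted p = 0.029). That call ended when Ctrl replicate 1 or 3, or Dox replicate 1 or 2, was dropped (adjusted p from 0.065 to 0.11), and with voom on recovered reads (0.0541). PSMF1, which encodes the proteasome inhibitor PI31, was at 47.1, 49.4 and 47.6 TPM and at 47.8, 48.6 and 48.2 TPM, in overlapping groups, but was called lower after median-ratio rescaling (-0.10), with quantiles equalised (-0.12) and with the length trend removed (-0.14).

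Of the 7 assembly factors 2 were higher (28.6%) and 2 lower (28.6%), against 35.9% and 17.8% of all tested genes. In either direction it was 57.1%, against 53.7%. Their log2 fold changes ran from -0.46 to 0.51. PSMD5, a chaperone that holds ATPase subunits before the base is complete, was at 16.2, 17.4 and 15.1 TPM in Ctrl and at 26.3, 22.4 and 21.9 TPM in Dox. It was the largest rise of any proteasome gene that passed the test, 1.45-fold (log2 fold change 0.51 ± 0.08, limma adjusted p = 0.0014). PSMD5-AS1, which overlaps it on the opposite strand (CUTALP in GENCODE 29), was at 1.56 TPM in Ctrl and 2.22 TPM in Dox; whether counting used strand is not stated. The other base chaperones changed less: PSMD9 was at 25.6, 24.9 and 24.5 TPM and at 27.3 TPM in each Dox library (0.12 ± 0.04, limma adjusted p = 0.037), and PSMD10, also known as the oncoprotein gankyrin and the most abundant assembly gene, had a log2 fold change of 0.00 (95% interval -0.09 to 0.09), which was -0.11 and called lower after median-ratio rescaling. PSMD9 keeps its call only without Ctrl replicate 1 (adjusted p from 0.068 to 0.14 without each of the others), and it was at 0.01 after median-ratio rescaling, -0.02 after quantile normalization and -0.11 with the length trend removed. A locus on the same strand that overlaps PSMD9, AC069503.2, was at 114 TPM in Ctrl and 124 TPM in Dox.

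The core chaperones PSMG1 to PSMG4 guide the building of the alpha ring. PSMG1 fell from 48.3, 46.8 and 45.8 TPM to 41.2, 38.7 and 38.2 TPM, in groups that did not overlap (log2 fold change -0.25 ± 0.04, limma adjusted p = 0.0022). Its partner PSMG2 did not pass as deposited (61.6 ± 0.907 and 60.5 ± 2.03 TPM; SD, n = 3), but it was called lower after median-ratio rescaling (-0.14, adjusted p = 0.029), with quantile normalization (-0.15, adjusted p = 0.015) and with the length trend removed (-0.12, adjusted p = 0.029). PSMG4, the least abundant, fell from 3.18, 3.24 and 3.21 TPM to 2.09, 2.13 and 1.94 TPM, 1.56-fold lower (-0.46 ± 0.09, limma adjusted p = 0.0027). Its partner PSMG3 did not pass, with a log2 fold change of 0.03 (95% interval -0.06 to 0.12). In each of these pairs the groups of the member that fell were apart, and those of its partner overlapped. PSMG4 rested on 284 to 297 reads in Ctrl and on 163 to 184 in Dox, over a length of 10418 bases, the longest of the 46. Within that span lies part of SLC22A23 on the opposite strand, which was higher in Dox (4.24 and 7.09 TPM), the other direction.

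**Figure D4:**
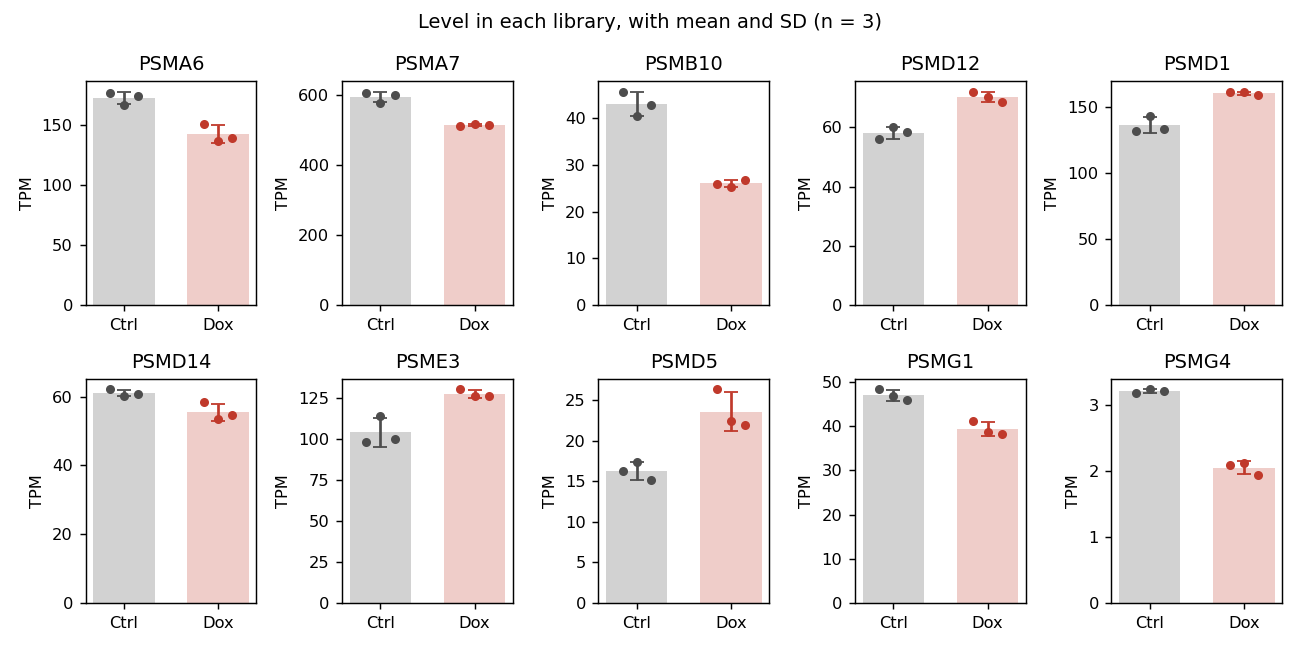
TPM in each library (points), with the mean (bar, from 0) and SD (n = 3), for 10 genes with the largest changes of their class or contrasted in the text. The Dox points of PSMA6, PSMA7, PSMB10, PSMD14, PSMG1 and PSMG4 all lie under the Ctrl points, and those of PSMD12, PSMD1, PSME3 and PSMD5 all lie above.

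Fold changes were read against gene length. For 23 members that length was inferred, as the smallest that gave whole reads. Core genes were shorter (median 2478.5 bases) and cap genes longer (4766), and long genes were higher with doxycycline over the whole table. Among all tested genes, the median log2 fold change was 0.01 under 2000 bases, 0.06 from 2000 to 4000, 0.11 from 4000 to 6000 and 0.18 above. For the members the same medians were -0.10 (7 genes), 0.01 (20), 0.06 (11) and 0.08 (8). As a description across genes, which share the libraries, Spearman's rho of length and fold change was 0.25 over the 46 members and 0.18 over 14833 genes. With each library's length trend removed, 11 of 14 core genes were lower and none higher, and 7 of 17 cap genes were lower and 2 (PSMD1 and PSMD12) higher. The medians were then -0.17 for the core and -0.09 for the cap, against -0.05 for all genes. Among long genes, PSMA6 and PSMA2, at 6474 and 5332 bases, fell as deposited, and PSMD6 and PSME4, at 9095 and 10259 bases, rose. The part of gene length in these changes was not tested.

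**Figure D5:**
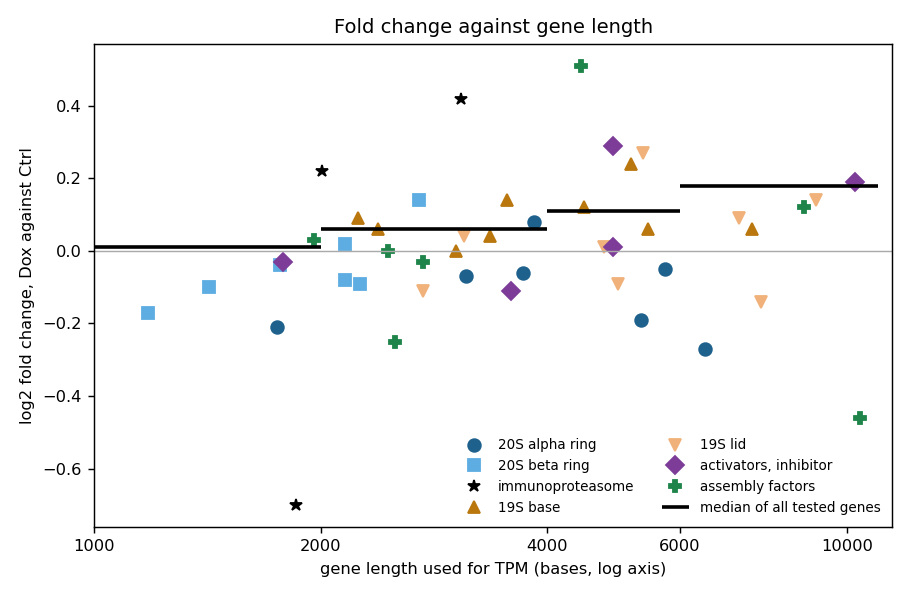
Log2 fold change (y axis) against the gene length used for TPM (x axis, bases, log scale) for the 46 members by class; black bars give the median of all tested genes in 4 ranges of length. Beta ring genes sit at the short end, and all 4 bars lie at or above 0.01. For 23 members the length was inferred, as the smallest that gave whole reads.

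A list of 29 genes that work with the proteasome (ubiquitin, its carriers, associated proteins and regulators) held 12 that rose and 8 that fell, 41.4% and 27.6%, against 35.9% and 17.8% of all tested genes, with a median of 0.01. The split was 8 and 12 after median-ratio rescaling, 10 and 12 with quantile normalization and 7 and 16 with the length trend removed. The largest rise was that of ZFAND5, a zinc finger protein that stimulates the proteasome, from 45.4, 49.8 and 49.9 TPM to 152, 150 and 132 TPM (log2 fold change 1.56 ± 0.06, limma adjusted p = 1.1e-06). No proteasome subunit gene changed by as much. NFE2L2 (NRF2) rose 1.4-fold, the shuttle factor UBQLN1 1.35-fold and the VCP cofactor NPLOC4 1.34-fold. USP14, a deubiquitinase bound to the cap and named after its values were seen, rose 1.31-fold to 77.9 ± 3.78 TPM (SD, n = 3).

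UBB, a polyubiquitin gene, was at 2240 ± 41.3 TPM in Ctrl and 1870 ± 63.1 TPM in Dox (SD, n = 3), and it fell as deposited (log2 fold change -0.26, limma adjusted p = 0.00036), after median-ratio rescaling and with the length trend removed, but was at 0.01 and not called with quantile normalization. RPS27A, which encodes ubiquitin fused to a ribosomal protein and was named after its values were seen, had a log2 fold change of -0.17 (limma adjusted p = 0.0021), and -0.04 with quantile normalization, where it was not called. UBA1, the enzyme that activates ubiquitin and was named after its values were seen, rose 1.3-fold and TXNL1, a thioredoxin of the cap, fell 1.29-fold.

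NFE2L1 was at 225, 246 and 234 TPM in Ctrl and at 196, 215 and 215 TPM in Dox, lower in all Dox libraries (log2 fold change -0.17 ± 0.05, limma adjusted p = 0.022). Dropping Ctrl replicate 2 or 3 or Dox replicate 1 ends the call (adjusted p of 0.069, 0.0539 and 0.0535). DDI2, the protease that releases the active factor, was 1.27-fold higher (limma adjusted p = 0.015), but at 0.05 with the length trend removed and 0.15 after quantile normalization, where it was not called. Its call also ends when Ctrl replicate 3 (0.052) or Dox replicate 2 (0.0521) is dropped. POMP, the maturation factor of the core, had 0.12 as deposited, 0.00 with median-ratio rescaling and 0.29 with quantile normalization. Dropping Ctrl replicate 2 (0.068), Ctrl replicate 3 (0.057) or Dox replicate 1 (0.0504) ends its call. These 3 genes were named after their values were seen.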

How the data were processed

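Stranded mRNA libraries (TruSeq) of 3 Ctrl and 3 Dox samples were grouped by their titles. The submitters' processing notes name FastQC 0.11.2, STAR 2.5.3a, featureCounts, edgeR and hg19, with no order. The authors deposited 1 value per gene and library in TPM; the sources used here give neither annotation release nor strand setting. Whole reads were recovered from TPM, GENCODE 29 exon lengths or the smallest length that gave whole reads (tolerance 0.01 reads, 100% of tested genes); 3 reads on 1 kb correspond to 0.3346 to 0.4007 TPM.

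The filter kept genes that reached 1 TPM in 3 or more of the 6 libraries. Testing used limma (3.58.1, R 4.3.3, variance trend on) with log2(TPM + 1), two-sided, Benjamini-Hochberg over all genes, threshold 0.05, which understates changes near 1 TPM; the fits were tested on simulated data. Intervals are limma's, unadjusted. Folds without "log2" are ratios of mean TPM. For PSMA1 and PSMA2 the row with the gene's GENCODE 29 identifier was counted. Alternatives were a pseudocount of 0.1, no variance trend, median-ratio rescaling, quantile normalization, no filter, a filter on mean TPM (5 or more), the replicate number as block, and each library left out; voom on recovered reads and removal of length trends (loess, span 0.3) were added after seeing the data. Members, lists and motifs were chosen with earlier results of these data known. Named were all members, with each library's values for the immunoproteasome genes and for the largest changes and the most and least abundant of each class, and up to 4 called genes per direction of the other lists. PSMA8 and PSMB11 were not analysed here. Some genes of the other lists that the rule would name are not reported here.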

Additional observations from a re-analysis of the deposited data

How the results depend on the processing

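Of the 22 called members, 10 (PSMA2, PSMA6, PSMA7, PSMB10, PSMD1, PSMD12, PSME3, PSMD5, PSMG1 and PSMG4) had the same direction and call under every alternative that could be fitted; PSMG4 and PSMB9 have a mean under 5 TPM and no value under that filter. The count of all genes, Dox against Ctrl (7959), lay between 6752 and 7589 with 1 library left out, and between 6759 and 8457 otherwise. Median-ratio rescaling gave 4 members higher and 23 lower (core 0 and 11, cap 2 and 4, activators and inhibitor 1 and 3, assembly 1 and 4). Removing the length trend gave 4 and 24 (core 0 and 11, cap 2 and 7, activators and inhibitor 1 and 2, assembly 1 higher, associated genes 7 and 16). Quantile normalization gave 1 higher and 2 lower among activators and inhibitor and 1 higher among assembly genes. With no variance trend, 7 members were lower, 0 of them in the cap and 0 among activators, of which 1 was higher, and 5 associated genes were lower. With no filter, 1 cap gene was lower and 1 activator higher. With a mean of at least 5 TPM, 1 immunoproteasome gene was higher and 1 assembly gene lower. With voom, 1 immunoproteasome gene was higher and 0 activators lower. With 1 library left out, 6 to 11 members were higher and 7 to 10 lower: 2 to 6 and 0 to 2 in the cap, 1 to 2 and 0 to 1 among activators and inhibitor, and 1 to 2 higher among assembly genes and 0 to 1 among immunoproteasome genes.

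Members below or at 0 after a change of scale, against a value on the other side as deposited, are given as log2 fold changes. With median-ratio rescaling they were PSMA4 -0.03, PSMB4 -0.09, PSMC1 -0.06, PSMC3 -0.02, PSMC4 -0.05, PSMC6 -0.05, PSMD2 -0.05, PSMD8 -0.07, PSMD11 -0.02, PSMD13 -0.10, PSMF1 -0.10, PSMD10 -0.11 and PSMG3 -0.08, and also TAP1 -0.09. With the length trend removed they were PSMA4 -0.04, PSMB4 -0.06, PSMC1 -0.06, PSMC4 -0.03, PSMC5 -0.02, PSMC6 -0.14, PSMD2 -0.10, PSMD6 -0.09, PSMD8 -0.06, PSMD11 -0.11, PSMD13 -0.14, PSME4 -0.06, PSMF1 -0.14, PSMD9 -0.11, PSMD10 -0.09 and PSMG3 -0.05, and also TAP1 -0.13. With quantile normalization they were PSMC1 -0.11, PSMC6 -0.07, PSMD6 0.00, PSMD11 -0.03, PSMD13 -0.04, PSMF1 -0.12, PSMD9 -0.02, PSMD10 -0.09 and PSMG3 -0.09, and also TAP1 -0.13, while UBB turned to 0.01. PSMD10 was at 0.00 with voom. With 1 library left out, the values on both sides of 0 were PSMB4 0.00 to 0.05, PSMC1 -0.02 to 0.10, PSMD4 -0.02 to 0.01, PSMD13 -0.02 to 0.03, PSMF1 -0.01 to 0.02, PSMD10 -0.02 to 0.02 and TAP1 0.00 to 0.03. The cause of these differences was not tested.

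With the replicate number as a block, 1 cap gene was lower, 1 immunoproteasome gene higher (PSMB9, adjusted p = 0.045) and 1 assembly gene higher; PSMB1 was called (0.032), and PSMD7 (0.057) and PSMD9 (0.058) were not. Deviations of same-numbered libraries from their group means had correlations of -0.0085, 0.063 and 0.0035, against -0.040 to 0.038 for differently numbered ones. With 3 libraries a group, these small values do not settle whether the numbers pair the libraries. Depth limited PSMB9 most, at 21 to 68 reads a library.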
